A study of Mus musculus with 87 samples.

Results

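The report follows 10 regulators and markers of primitive and definitive endoderm, Gata4, Gata6, Sox17, Sox7, Foxa1, Foxa2, Foxa3, Hnf4a, Dab2 and Lama1, which were chosen by name and read by row name in 13 tables of RNA-seq comparisons. All 10 were found among the 26171 genes of every table. All RNA samples came from the mouse embryonic stem cell (ESC) line 129-B13, which was grown in 20% serum with LIF, or from neuronal precursors (NP) that were made from it through embryoid bodies with retinoic acid from day 4 and harvested at day 8. Suz12 is a core subunit of the Polycomb repressive complex PRC2, and its exon 4 can be included in or skipped from the transcript. The groups were wild type (WT), WT cells in which exon 4 is constitutive (CSex4), cells with exon 4 of Suz12 deleted (Deltaex4), the full Suz12 knock-out (KO), and the KO rescued with the long (KO-L) or the short (KO-S) isoform. In ESC, rescues with isoforms that carry the 3D mutation downstream of exon 4 (KO-L3D and KO-S3D) were also sequenced; these 2 transgenes sit in the Rosa26 locus. The RNA data held 3 WT, 3 KO and 2 samples of each other group in ESC, and 4 WT and 2 samples of each other group in NP. The labels number the samples of a group but do not say if they were separate cultures or clones, so p-values measure the spread between these samples.

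Primitive endoderm is the extraembryonic lineage that arises beside the epiblast in the blastocyst and gives rise to parietal and visceral endoderm, and definitive endoderm arises later, at gastrulation, and forms the gut and its organs. Gata6 and Gata4 are zinc finger factors that start and maintain primitive endoderm, and Sox17 and Sox7 are HMG box factors of the same lineage, of which Sox17 also marks definitive endoderm. Foxa1, Foxa2 and Foxa3 are forkhead pioneer factors of gut, liver and pancreas, and Hnf4a is a nuclear receptor of visceral endoderm and hepatocytes. Dab2, an endocytic adaptor, and Lama1, the alpha 1 chain of laminin, are effector genes of the extraembryonic endoderm. In ESC, many lineage regulators of this kind are held silent with PRC2 and its mark H3K27me3 over their start sites.

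The authors deposited lists of regions from ChIP-seq of Suz12 and of H3K27me3. All ChIP-seq samples were of ESC. Most of the factors, but not the effector gene Dab2, had such a region. Gata4, Gata6, Sox17, Sox7, Foxa1 and Foxa2 had a Suz12 region within 2500 bp of an end of the gene, whereas Foxa3, Hnf4a, Dab2 and Lama1 had none. These 6 of 10 members compare with 2712 of 26124 genes with a position (10.4%). For H3K27me3, 8 of 10 members had a region, against 19.6% of genes, with Foxa3 and Lama1 as the additional members. The coverage differed widely. The H3K27me3 region at Foxa2 spanned 27808 bp (chromosome 2, 148025200 to 148053007) and covered the whole gene, as did the region of 24763 bp at Foxa1 (chromosome 12, 57531456 to 57556218) and that of 13662 bp at Sox17 (chromosome 1, 4487571 to 4501232). The Gata4 region of 35727 bp (chromosome 14, 63237776 to 63273502) covered 46.6% of that gene, and 3 separate Suz12 regions lay inside it. At Sox7, on the same chromosome, the region was shorter, at 5848 bp, and covered 50.2% of the gene. By contrast, the H3K27me3 regions at Foxa3 and Lama1 were 1442 bp and 1512 bp long and ranked 6217 and 4957 of 6882 by the authors' value, where the smallest value ranks first. Foxa1 and Foxa2 ranked 28 and 29 in that list. The nearest H3K27me3 region lay 127634 bp from Hnf4a and 432540 bp from Dab2. The lists do not say between which groups or in which direction a region changed, so they are used here as places of Suz12 and H3K27me3 signal only, and positions are as the lists give them, on mm10 per the submitters' processing notes.

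The first 250 bases of the RefSeq window at a listed start of 4 members (the outermost where several are listed) are shown because they include promoters inside Suz12 regions (Foxa1 and Foxa2, the members with a promoter in the RefSeq table whose start lies in one) and, for contrast, Foxa3, whose promoter lies just outside its H3K27me3 region, and Dab2, which is far from both kinds of region. For Foxa1 the table lists 1 start, and the stretch lies inside the span of the gene (chromosome 12, 57540628 to 57548029), not before its outer end. The sequences are from RefSeq (GRCm38.p6), written 5′ to 3′ in lower case with every CG dinucleotide, a step typical of CpG islands, in capitals.
Foxa1, chr12:57546112-57546361, minus strand: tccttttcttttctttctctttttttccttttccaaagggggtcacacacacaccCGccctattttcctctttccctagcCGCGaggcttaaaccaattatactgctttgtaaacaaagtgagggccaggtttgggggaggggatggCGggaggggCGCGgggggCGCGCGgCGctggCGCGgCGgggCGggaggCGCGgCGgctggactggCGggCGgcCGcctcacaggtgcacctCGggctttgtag
Foxa2, chr2:148046970-148047219, minus strand: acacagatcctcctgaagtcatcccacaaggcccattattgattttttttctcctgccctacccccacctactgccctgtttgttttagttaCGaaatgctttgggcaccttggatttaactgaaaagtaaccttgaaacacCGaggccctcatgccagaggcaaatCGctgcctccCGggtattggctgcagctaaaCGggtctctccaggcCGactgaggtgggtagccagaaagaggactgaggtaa
Foxa3, chr7:19023540-19023789, minus strand: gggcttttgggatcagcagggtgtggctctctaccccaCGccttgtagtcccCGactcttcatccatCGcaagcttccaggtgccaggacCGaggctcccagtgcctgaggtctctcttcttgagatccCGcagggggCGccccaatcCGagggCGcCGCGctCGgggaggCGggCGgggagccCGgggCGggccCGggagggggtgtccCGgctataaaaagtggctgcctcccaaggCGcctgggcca
Dab2, chr15:6299539-6299788, plus strand: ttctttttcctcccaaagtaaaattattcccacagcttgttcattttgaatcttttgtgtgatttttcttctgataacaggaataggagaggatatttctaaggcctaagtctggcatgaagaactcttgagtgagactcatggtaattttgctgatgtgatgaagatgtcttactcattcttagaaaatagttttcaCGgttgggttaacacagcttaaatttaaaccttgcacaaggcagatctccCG
The Foxa1 promoter held 21 CG, a number reached by 16.3% of the 32851 promoters of the table, and the Foxa3 promoter held 18 (21.7% of promoters). The outermost Foxa2 promoter held 6, which is the median of all promoters, and the Dab2 promoter held 2 (81.2% of promoters have at least as many). Among the promoters shown, Foxa3 was dense in CG and had no listed Suz12 region. Foxa2 lay in one with a median count at the outermost of its 3 listed starts, the only one counted. A link between CG count and Suz12 regions was not tested. The promoter table held 5 of the 10 members, the fifth being Hnf4a with 3 CG; Gata4, Gata6, Sox17, Sox7 and Lama1 are not in it.

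The deposited tables give the mean of a comparison and not the level in a sample, but whole reads of all 32 RNA libraries could be recovered from the means, because a gene with a single read shows the step that 1 read of that library is worth. Reads were found for all 52342 gene entries of the 2 cell types, and 60 places in the tables were filled by 32 distinct libraries, as many as there are RNA samples, with the labelled number in each group. The replicate number of a library is not known, so libraries are lettered within a group from the most reads down, and a level is given as RPM, the reads scaled to a library total of 1000000 reads in genes. Totals ran from 23570194 to 47201666 reads in genes, so that 3 reads, the limit that a count of 0 allows, are worth about 0.1 RPM; these limits cover counting error only. Suz12, the targeted gene, was at 45.3 to 92.6 RPM in ESC KO against 149 to 288 in WT, and at 41.9 and 43.9 in NP KO against 105 to 197 in WT. It fell by 1.82 ± 0.22 in ESC KO (log2 with its SE, adjusted p 8.21e-15) and fell by 2.14 ± 0.33 (adjusted p 5.63e-09) in NP KO in the authors' deposited tables; its reads may include transcript outside the deleted part. In NP, Suz12 was higher than in KO by 1.35 ± 0.21 in KO-L and by 1.09 ± 0.20 in KO-S in the authors' deposited tables, and in ESC it was lower than in WT by a log2 change of -1.05 ± 0.28 in KO-L and -0.83 ± 0.27 in KO-S. In ESC KO-L3D it was at 66.7 and 96.5 RPM, beside the 45.3 to 92.6 of KO (-1.85 ± 0.28 against WT, adjusted p 3.84e-09 in the authors' deposited table), so that Suz12 RNA in this rescue lay near the level of KO, whereas in KO-S3D it was at 186 and 331 (-0.06 ± 0.42, adjusted p 0.974). In Deltaex4 it was at 131 and 76.8 (-1.28 ± 0.40) and was not called. The summed level of 5 ESC markers (Pou5f1, Nanog, Sox2, Zfp42 and Esrrb) was 1306 to 4876 RPM in the ESC libraries. It was 69.6 to 844 in NP outside CSex4, and 1228 and 1244 in the 2 NP CSex4 libraries. The summed level of 5 neural markers (Sox1, Pax6, Nes, Fabp7 and Hes5) was 267 to 662 in NP WT, 667 and 812 in Deltaex4, 358 and 385 in KO-S, 189 and 250 in KO-L, 178 and 186 in CSex4, and 92.3 and 94.1 in KO. In ESC they summed to 19.6 to 76.3 in WT and to at most 401, in CSex4. The NP libraries of KO, CSex4, KO-L and KO-S did not exceed that highest ESC library. Nor did the lowest NP WT library, at 267. In bulk samples, fewer cells of a type and less RNA per cell cannot be told apart.

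One WT library of ESC stood apart in these genes, and every comparison of ESC with WT rests partly on it. Gata6 had 10 reads in WT library a (0.306 RPM), 13 in library b (0.409) and 401 in library c (14.6). Gata4 had 62, 58 and 913 reads in the same order, or 1.9, 1.83 and 33.3 RPM. Sox17 had 0 and 2 reads in libraries a and b and 206 in library c (7.52 RPM); the 0 reads allow up to 0.0919 RPM. Library c was thus the highest WT library by a wide margin for all 3 factors. Lama1 was at 75.5, 90.8 and 840.1 RPM in libraries a, b and c, Dab2 at 7.72, 10.01 and 68.5, Sox7 at 1.16, 1.07 and 13.1, and Foxa2 at 0.153, 0.0945 and 2.66. Hnf4a had 0, 1 and 22 reads. In contrast, Foxa1 had 10, 18 and 8 reads and Foxa3 95, 95 and 86, so that these members did not share the pattern. Library c exceeded the higher of the other WT libraries 6.84-fold in Dab2 and 35.7-fold in Gata6. Its sum over the list of visceral endoderm genes was 187 RPM, against 25.4 and 26.3, and over the list of primitive and parietal endoderm genes 4299 against 1167 and 1144. Over definitive endoderm genes it was 55.8, between 39.0 and 61.3. ESC markers were at 3077 in library c, against 2309 and 2494, and neural markers at 19.6, against 76.3 and 71.8; their part in the results was not tested. In the 6 ESC tables with 2 libraries against 3 WT libraries, genes whose single read was in WT library b had a median deposited log2 fold change of -0.23 to 0.06, against -1.53 to -1.21 for libraries a and c, so the fold changes of those tables rest almost wholly on libraries a and c. In the KO table, with 3 libraries against 3, library b counted like the others (-0.96). The deposited tables carry the word paired in their names, and a fit with the replicate as a term would leave an unpaired library without weight in this way; the authors' formula is not given in the sources used here.

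**Figure D1:**
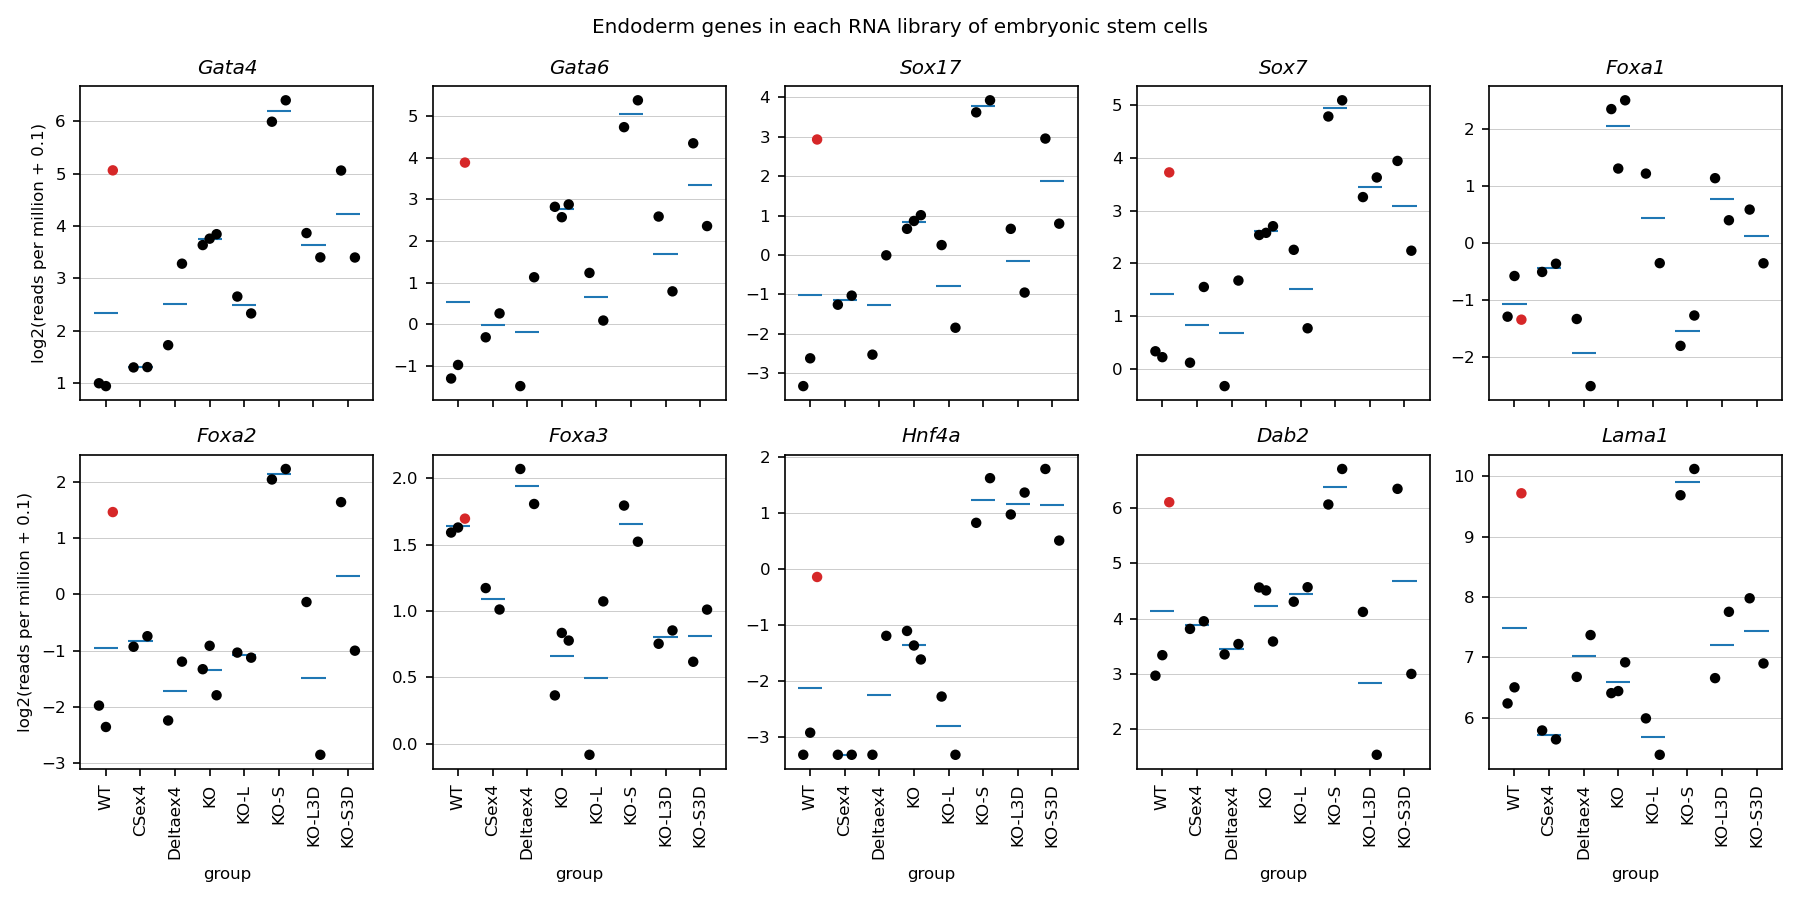
Level of each endoderm gene in the 18 ESC libraries, on a log2 scale of RPM plus 0.1, by group; each point is 1 library, the short line is the group's mean on that scale, and WT library c is drawn in red. WT library c lies above the other WT libraries in 8 of the panels, at 14.6 RPM for Gata6 where the other WT libraries are at 0.306 and 0.409, and with the other WT libraries in Foxa1 and Foxa3.

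The question of the knock-out comparison is which genes rise when PRC2 is lost. In ESC KO, Foxa1 was the only one of the 10 members called higher in the authors' deposited table, by 3.27 ± 0.49 (log2 with its SE, adjusted p 2.42e-09, DESeq2). It was at 4.98, 2.37 and 5.56 RPM in the 3 KO libraries and at 0.306, 0.567 and 0.292 in WT, so that the groups did not overlap; KO lay above all WT libraries in 32% of all genes. Foxa3 fell by 1.21 ± 0.41 in the authors' deposited table (adjusted p 0.0212), from 2.91, 2.99 and 3.14 RPM in WT to 1.19, 1.68 and 1.61 in KO. These 1 rise and 1 fall among 10 members compare with 11% of all genes tested called higher and 7.27% called lower. Gata6 was at 6.96, 5.84 and 7.25 RPM in KO, above WT libraries a and b and below library c. Gata4 was at 12.3, 13.4 and 14.3, Sox17 at 1.48, 1.72 and 1.91 and Sox7 at 5.71, 5.88 and 6.42, with the same order against the WT libraries. The KO libraries thus lay close together and between the 2 kinds of WT library. Their log2 fold changes in the authors' deposited table were 2.69 ± 1.37 for Gata6 (adjusted p 0.169), 1.46 ± 1.11 for Gata4 (adjusted p 0.413), 3.99 ± 2.11 for Sox17 (adjusted p 0.191) and 1.15 ± 0.60 for Sox7 (adjusted p 0.19), and none passed. Foxa2 stayed at 0.188 to 0.430 RPM in KO, Hnf4a at 0.225 to 0.363, Dab2 at 11.9 to 23.5 and Lama1 at 84.9 to 120.9. Trophoblast markers (Cdx2, Elf5, Hand1, Krt7, Tfap2c and Gata3) summed to 132 to 174 RPM in KO and to 71.6 to 106 in WT, with 4 of 6 called higher in the authors' deposited table, and neural markers to 27.1 to 60.6 against 19.6 to 76.3; their part in the results was not tested.

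A second test, limma on the recovered reads, was added after the data were seen; it has no replicate term and made it possible to leave WT library c out. With all libraries, limma called the same members in ESC KO, Foxa1 (3.13 ± 0.49, adjusted p 0.0028) and Foxa3 (-0.98 ± 0.29, adjusted p 0.032), where 14.1% of all genes were called higher and 4.49% lower. Library c was singled out for its high levels of these same members, so leaving it out raises their fold changes by construction, and all values without it, here and below, describe the other libraries and support no call. Without WT library c, 5 members had an adjusted p under 0.05 in KO, where the background was 13.1%. The log2 fold change was then 3.89 ± 0.75 for Gata6, 3.82 ± 0.82 for Sox17, 2.77 ± 0.45 for Gata4, 2.32 ± 0.64 for Sox7, 2.99 ± 0.56 for Foxa1 and 0.82 ± 0.78 for Foxa2. Foxa3 then missed the threshold (-0.95 ± 0.33, adjusted p 0.065), and leaving out any other KO or WT library left 1 call.

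In the short-isoform rescue, both libraries exceeded every other ESC library in Gata4, Gata6, Sox17, Sox7 and Foxa2, 5 of 10 members, against 6.06% of all genes. Gata4 was at 63.5 and 84.3 RPM in the 2 KO-S libraries, Gata6 at 26.4 and 41.4, Sox17 at 12.2 and 15.1 and Sox7 at 27.4 and 33.9. These values lay above all WT libraries, library c included. Foxa2 was at 4.03 and 4.61 and Hnf4a at 1.66 and 2.97, again above every WT library, which makes 6 members, where 35.6% of all genes lay above every WT library in KO-S. Lama1 at 821.6 and 1110 and Dab2 at 66.5 and 104 lay on both sides of WT library c. Foxa1 did not share the pattern, at 0.185 and 0.312 RPM, nor did Foxa3, at 3.37 and 2.77. In the authors' deposited table none of the 9 members with an adjusted p was called in KO-S, where 4.28% of genes were called higher and 3.63% lower; 5 had an unadjusted p under 0.05, all of them higher. The nearest was Hnf4a (3.70 ± 1.30, adjusted p 0.0535) in the authors' deposited table, followed by Foxa2 (2.42 ± 0.89, adjusted p 0.0712). With limma on all libraries, 6 members were called higher, Gata4, Gata6, Sox17, Sox7, Hnf4a and Lama1, with fold changes from 2.41 ± 0.76 for Lama1 (adjusted p 0.044) to 4.77 ± 1.43 for Sox17 (adjusted p 0.036), where 11.1% of genes were called higher. Without WT library c, Foxa2 and Dab2 also passed (8 members, background 14.5%), and Gata6 was at 6.19 ± 0.83. Leaving out KO-S library a or b, or WT library a or b, left 0 calls. Against KO, limma called Foxa1 lower in KO-S (-3.59 ± 0.55, adjusted p 0.001; background 9.99%) and Lama1, Foxa2, Hnf4a and Foxa3 higher, led by Foxa2 (3.49 ± 1.05, adjusted p 0.038) and Lama1 (3.31 ± 0.76, adjusted p 0.0099; background 6.48%). Leaving out 1 KO library left 2 calls, and leaving out 1 KO-S library left 1. Trophoblast markers summed to 33.8 and 47.1 RPM in KO-S, below all WT libraries (71.6 to 106), and neural markers to 19.9 and 25.5, close to the 19.6 of WT library c and below libraries a and b; their part in the results was not tested.

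The long-isoform rescue gave levels below those of KO in most members. Gata4 was at 6.20 and 4.94 RPM in the KO-L libraries, Gata6 at 2.25 and 0.966, Sox17 at 1.09 and 0.179 and Sox7 at 4.68 and 1.61. These values lay below every KO library for all 4 genes, as they did in 7 of 10 members and in 38.6% of all genes, and above WT libraries a and b. Lama1 was at 63.6 and 41.8, below all WT libraries, as was Foxa3 (2 of 10 members, against 16.2% of all genes). Foxa1, at 2.22 and 0.680, lay above all WT libraries (1 of 10 members, against 21.9% of all genes). Dab2 was at 19.6 and 23.6, beside 11.9 to 23.5 in KO. In the authors' deposited table no member of the 9 tested was called in KO-L (background 1.46% higher and 0.771% lower), and none had an unadjusted p under 0.05; limma also called none, with 3 members at an unadjusted p under 0.05 with WT library c and 5 without it. A direct comparison of the rescues uses no WT library in its fold change. There limma called 8 members, with Gata6 (4.39 ± 1.36, adjusted p 0.031), Sox17 (4.56 ± 1.56, adjusted p 0.044), Lama1 (4.21 ± 0.83, adjusted p 0.0042), Hnf4a (4.02 ± 0.91, adjusted p 0.0077), Gata4 (3.70 ± 1.02, adjusted p 0.019), Sox7 (3.42 ± 1.01, adjusted p 0.026) and Foxa3 (1.16 ± 0.35, adjusted p 0.027) higher in KO-S. Foxa1 was lower (-1.97 ± 0.60, adjusted p 0.029). The background of this comparison was 16.3% higher and 11.1% lower. Leaving out 1 library of either rescue left 1 to 3 calls: 2 without KO-L library a, 3 without KO-L library b, 2 without KO-S library a and 1 without KO-S library b. The difference of the 2 deposited fold changes, which both rest on WT libraries a and c, called no member, with 4 at an unadjusted p under 0.05 (background 1.35% higher and 2.59% lower).

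**Figure D2:**
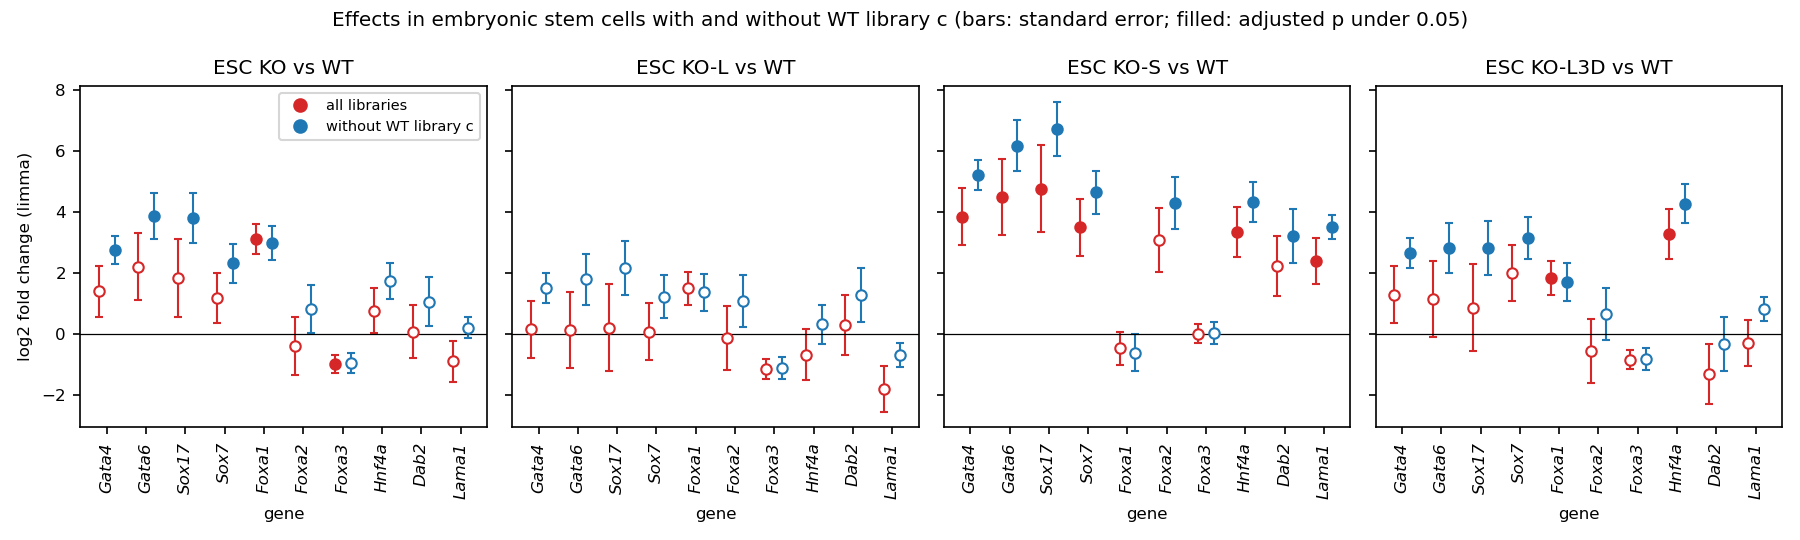
log2 fold change against WT of each endoderm gene in ESC KO, KO-L, KO-S and KO-L3D by limma, with all libraries (red) and without WT library c (blue); bars are standard errors and filled points have an adjusted p under 0.05. Leaving the library out moved Gata6 in KO from 2.22 to 3.89 and in KO-S from 4.52 to 6.19, and left Foxa1 and Foxa3 nearly where they were.

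With the 3D mutation, the 2 libraries of a rescue differed widely in some members, Gata6 and Dab2 among them. In KO-L3D they lay closer together in Gata4 and in Sox7, the latter at 9.45 and 12.3 RPM. Gata6 was at 5.91 and 1.63 RPM in KO-L3D and at 20.2 and 5.03 in KO-S3D. Gata4 was at 14.5 and 10.5 in KO-L3D and at 33.2 and 10.5 in KO-S3D. Dab2 was at 17.3 and 2.81 in KO-L3D and at 81.0 and 7.90 in KO-S3D. Hnf4a was above all WT and KO libraries in both groups, at 1.86 and 2.47 in KO-L3D and at 3.34 and 1.32 in KO-S3D. Foxa1 and Hnf4a, 2 of 10 members, lay above every WT library in each group, where 43.2% of all genes did so in KO-L3D and 30.1% in KO-S3D. In the authors' deposited table, 1 member was called in KO-L3D (Lama1, -1.10 ± 0.41, adjusted p 0.0421; background 8.22% higher and 10.1% lower) and none in KO-S3D (background 2.05% higher and 1.18% lower; 3 members at an unadjusted p under 0.05, all higher). Lama1 was at 100.9 and 215.9 RPM in KO-L3D, above WT libraries a and b and below library c, and without library c its limma fold change was 0.83 ± 0.39 (adjusted p 0.11), the opposite direction. With all libraries limma called Foxa1 (1.84 ± 0.55, adjusted p 0.017) and Hnf4a (3.30 ± 0.83, adjusted p 0.007) higher in KO-L3D (background 28.7%) and Hnf4a (3.27 ± 0.83, adjusted p 0.013) in KO-S3D (background 16.4%); leaving out library a of the rescue left 1 and 0 calls. Without WT library c, 6 members had an adjusted p under 0.05 in each: Gata4, Gata6, Sox17, Sox7 and Hnf4a in both, with Foxa1 in KO-L3D (background 28.9%) and Foxa2 in KO-S3D (background 17.6%). The log2 fold changes in KO-L3D then ran from 1.70 ± 0.62 for Foxa1 to 4.29 ± 0.65 for Hnf4a. KO-L3D against KO-L differed in Hnf4a (3.97 ± 0.91, adjusted p 0.0046 by limma; background 26.1% higher), and without WT library c also in Lama1 and Sox7 (background 27.3%). KO-S3D against KO-L3D called no member by limma, and none had an unadjusted p under 0.05 (background 0.531% higher and 0.904% lower). The standard errors there were large, with 1.66 ± 1.36 for Gata6. Trophoblast markers summed to 140 and 556 RPM in KO-L3D and to 47.2 and 526 in KO-S3D, against 71.6 to 106 in WT; their part in the results was not tested.

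The 2 exon 4 alleles moved none of the members past the threshold in ESC. In the authors' deposited tables, 0 of 8 members tested were called in CSex4 (background 1.72% higher and 0.695% lower; 2 at an unadjusted p under 0.05, both lower) and 0 of 10 in Deltaex4 (background 0% in both directions; 0 at an unadjusted p under 0.05), and limma called none in either, with 1 member at an unadjusted p under 0.05 in CSex4 and 0 in Deltaex4. Gata4 was at 2.37 and 2.38 RPM in CSex4 and at 3.21 and 9.62 in Deltaex4, in each case above WT libraries a and b. Gata6 was at 0.706 and 1.10 in CSex4 and at 0.258 and 2.09 in Deltaex4. The deposited log2 fold changes of Gata4 in CSex4 (-1.86 ± 0.71, adjusted p 0.172) and of Lama1 (-2.35 ± 1.36, adjusted p 0.547) in the authors' deposited table were negative. The limma value for Gata4 was -1.03 ± 0.93 with WT library c and 0.33 ± 0.50 without it. The 2 Deltaex4 libraries differed widely, with 7 and 56 reads of Gata6 and 2 and 24 of Sox17.

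In NP every member was expressed, and in the knock-out Foxa1, Foxa2, Gata4 and Gata6 rose. All 4 had a Suz12 region, but so did Sox17 and Sox7, which were not called (adjusted p 0.0967 and 0.151, DESeq2). The ChIP-seq samples were all of ESC, so these regions were not measured in NP. Foxa1 was at 102 RPM in both KO libraries and at 10.9 to 36.7 in the 4 WT libraries. Foxa2 was at 66.2 and 85.5 in KO and at 7.58 to 32.9 in WT, and Gata4 at 156 and 325 in KO and at 30.9 to 120.0 in WT. Gata6 was at 62.8 and 82.8 in KO, above the highest WT library, at 51.3. In none of these 4 genes did KO and WT overlap; KO lay above all 4 WT libraries in 31.9% of all genes, so the count of 4 of 10 is near the background. In the authors' deposited table they rose by 2.31 ± 0.43 (Foxa1, adjusted p 1.51e-06), 2.21 ± 0.46 (Foxa2, adjusted p 2.55e-05), 1.85 ± 0.35 (Gata4, adjusted p 3.21e-06) and 1.43 ± 0.42 (Gata6, adjusted p 0.00473). These were 4 of 10 members, against 11.6% of all genes called higher, and 0 were called lower, against 9.85%. That table uses WT libraries b and c. The deposited table with the other WT libraries, a and d, called the same 4 genes, lower in WT than in KO by 2.44 ± 0.36, 1.81 ± 0.34, 1.43 ± 0.36 and 1.43 ± 0.31 in the order above (background 17.3% lower and 15.6% higher in WT). Limma with all 4 WT libraries also called these 4 (background 28.6%), from 1.49 ± 0.39 for Gata6 (adjusted p 0.0083) to 2.43 ± 0.47 for Foxa1 (adjusted p 0.0015); without KO library b, 2 members were called. Both deposited tables share the KO libraries.

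Neural markers moved with this comparison, with 4 of 5 called lower in NP KO in the authors' deposited table and a median log2 fold change of -2.84, as did trophoblast markers, with 4 of 6 called higher; their part in the results was not tested.

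The other 6 members did not pass in NP KO. Sox17 was at 29.5 and 45.4 RPM in KO and at 11.9 to 34.7 in WT, and Sox7 at 44.3 and 29.6 against 12.6 to 34.6. Lama1 was at 479 and 585 against 257 to 595.4, Dab2 at 145 and 157 against 50.8 to 205, and Hnf4a at 10.8 and 23.5 against 2.83 to 26.8. Foxa3 was at 2.52 and 4.08 against 0.931 to 4.42. In all 6 the KO and WT libraries overlapped. The WT libraries of NP themselves spread widely, with library c lowest in all members but Sox7 and library b highest in 8. For Sox7, library b was the lowest, at 12.6, and library d the highest, at 34.6.

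**Figure D3:**
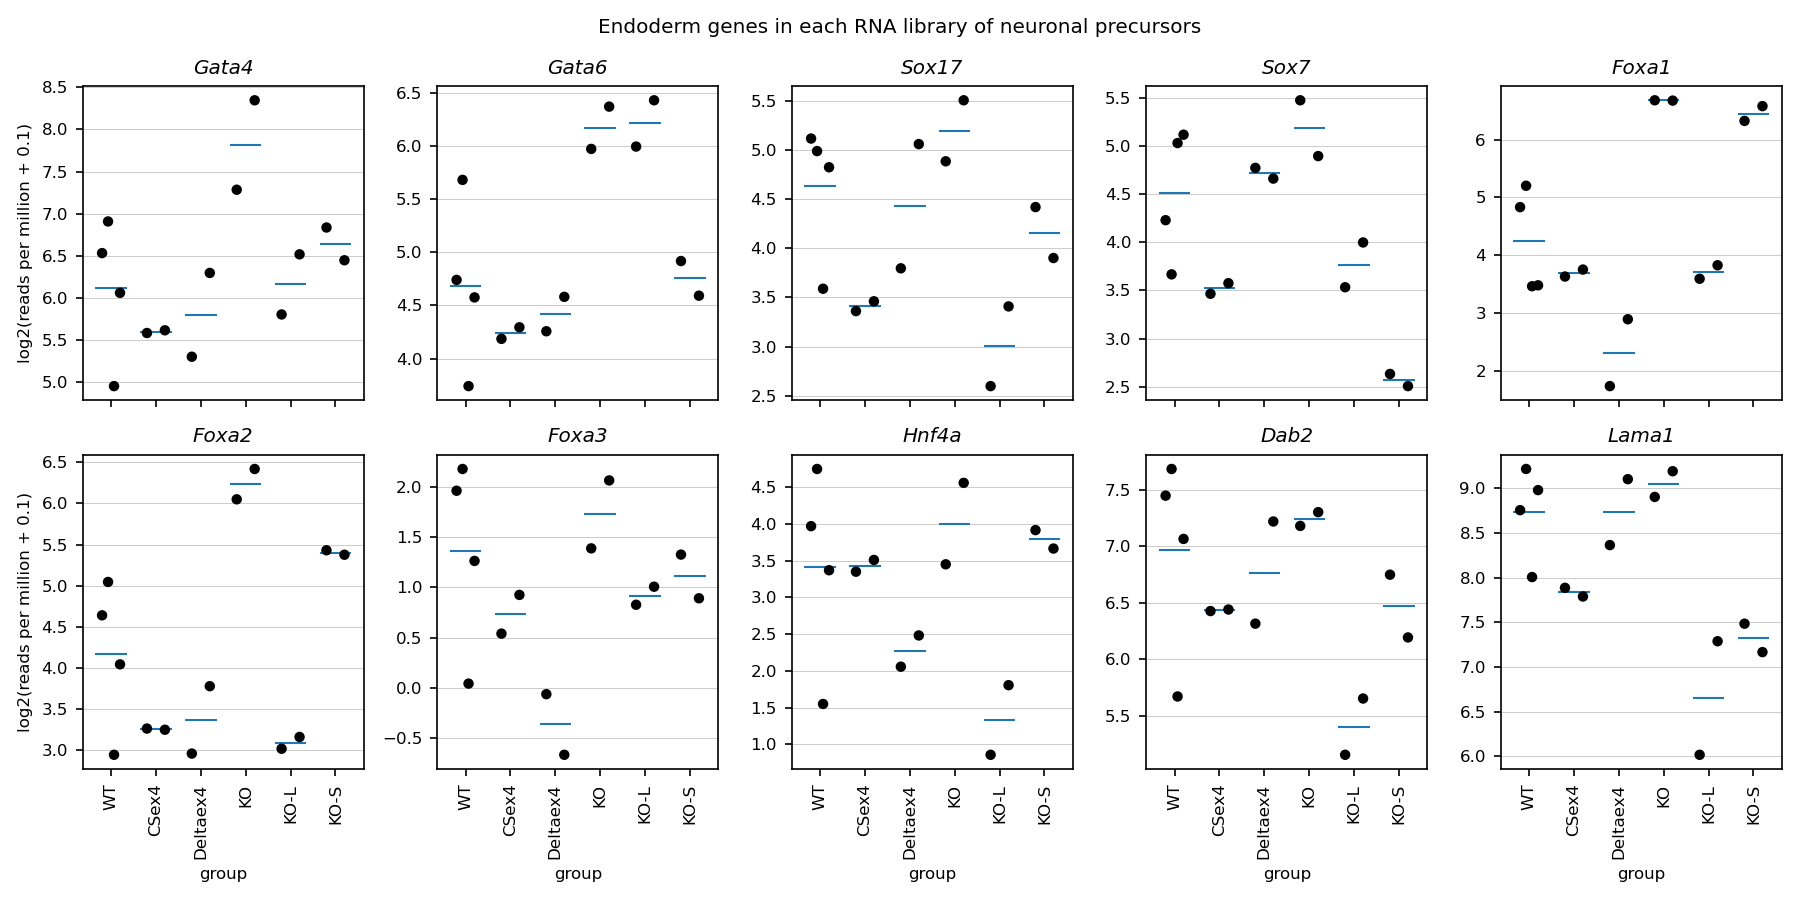
Level of each endoderm gene in the 14 NP libraries, on a log2 scale of RPM plus 0.1, by group; each point is 1 library and the short line is the group's mean on that scale. Both KO libraries lie above all WT libraries in Foxa1, Foxa2, Gata4 and Gata6 (4 of 10 members, against 31.9% of all genes). Foxa1 is at 102 against 10.9 to 36.7 RPM. KO-L and KO-S do not overlap in Foxa1, Foxa2, Gata6, Hnf4a, Sox17, Sox7 and Dab2. The test of the difference called these 7 of 10 members, against 5.71% of all genes higher and 4.56% lower in KO-S.

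The rescues in NP were compared with the KO, and the 2 isoforms left different members high. With the long isoform Foxa1 was at 11.97 and 14.1 RPM and Foxa2 at 7.98 and 8.82, within the range of WT. With the short isoform Foxa1 stayed at 79.9 and 95.4, close to the 102 of KO, and Foxa2 at 43.0 and 41.4. Gata6 showed the reverse. It was at 63.7 and 86.3 in KO-L, beside 62.8 and 82.8 in KO, and at 30.1 and 24.0 in KO-S, within the range of WT. Sox7 was lowest in KO-S, at 6.10 and 5.58, below all WT libraries, and at 11.5 and 15.9 in KO-L. Lama1 was at 64.6 and 156 in KO-L and at 179 and 144 in KO-S, in both below the lowest WT library, at 257. Hnf4a was at 1.71 and 3.39 in KO-L and at 15.02 and 12.6 in KO-S, and Sox17 at 5.95 and 10.5 in KO-L and at 21.3 and 14.8 in KO-S. Gata4 was at 55.8 and 91.6 in KO-L and at 114 and 87.2 in KO-S, below both KO libraries and within the range of WT. Dab2 was at 35.5 and 50.2 in KO-L, below the lowest WT library at 50.8, and at 107 and 73.0 in KO-S.

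Of the 10 members 8 were lower in KO-L than in KO in the authors' deposited table, all but Gata6 and Foxa3, against 13.8% of all genes called lower; 0 members were higher, against 10.9%. The falls ran from -1.38 ± 0.29 for Sox7 (adjusted p 3.06e-05) to -3.12 ± 0.24 for Foxa2 (adjusted p 1.81e-35), with -2.93 ± 0.22 for Foxa1 (adjusted p 3.32e-38). Gata6 did not differ beyond its error (0.09 ± 0.21, adjusted p 0.841) in the authors' deposited table. In KO-S, 7 of 10 were lower than in KO, all but Foxa1, Foxa3 and Hnf4a, against 18% of all genes called lower; 0 were higher, against 16.4%. Sox7 fell furthest in KO-S in the authors' deposited table (-2.55 ± 0.28, adjusted p 1.04e-18), followed by Lama1 (-1.64 ± 0.15, adjusted p 1.49e-26) and Gata6 (-1.34 ± 0.19, adjusted p 1.07e-10). Foxa1 (-0.14 ± 0.18, adjusted p 0.583) and Hnf4a (-0.14 ± 0.31, adjusted p 0.784) were near 0 there. With a spread pooled over all NP groups, limma called fewer members: 7 lower in KO-L, all but Gata4, Gata6 and Foxa3 (background 16.2%), and 3 lower in KO-S, Gata6, Sox7 and Lama1 (background 19%). Leaving out KO-L library a left 3 calls in KO-L, leaving out KO-L library b or KO library b left 4, and leaving out KO library b or KO-S library b left 1 in KO-S; without KO library a or KO-S library a, 2 were left in KO-S.

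In the authors' deposited tables, 3 of 5 neural markers were called higher than in KO and 1 lower in KO-L, and 5 higher in KO-S. Of 5 ESC markers, 4 were higher in KO-L, and 1 was higher and 1 lower in KO-S. Of 6 trophoblast markers, 1 was higher and 3 lower in KO-L, and 6 were lower in KO-S. Of all genes tested, 10.9% were called higher and 13.8% lower in KO-L, and 16.4% and 18% in KO-S. The part of these markers in the results was not tested.

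The difference between the rescues was tested itself. Relative to KO, Foxa1 was higher in KO-S than in KO-L by 2.79 ± 0.28 (log2, adjusted p 2.80e-20), Hnf4a by 2.55 ± 0.48 (adjusted p 6.47e-06), Foxa2 by 2.37 ± 0.31 (adjusted p 5.30e-12), Sox17 by 1.21 ± 0.35 (adjusted p 0.00988) and Dab2 by 1.11 ± 0.27 (adjusted p 9.85e-04). Gata6 was lower in KO-S by -1.42 ± 0.28 (adjusted p 2.27e-05) and Sox7 by -1.17 ± 0.40 (adjusted p 0.0395). These adjusted p-values come from the deposited DESeq2 fold changes and standard errors of the 2 tables, which share the KO libraries, and of all genes tested 5.71% were called higher and 4.56% lower. The direct limma comparison of KO-S with KO-L called Foxa1 (2.74 ± 0.55, adjusted p 0.0068), Foxa2 (2.32 ± 0.53, adjusted p 0.012) and Hnf4a (2.46 ± 0.80, adjusted p 0.047) higher and Gata6 (-1.46 ± 0.45, adjusted p 0.04) lower, where the background was 10.9% higher and 11.9% lower. Leaving out KO-L library a or KO-S library b left 0 calls, and leaving out either of the other 2 libraries left 1. In NP, Foxa1 and Foxa2 were thus higher with the short isoform and Gata6 with the long one. In ESC the order of Gata6 and Foxa1 was reversed, with Foxa1 at 0.185 and 0.312 RPM in KO-S and at 2.22 and 0.680 in KO-L. Foxa2 kept its order in ESC, at 4.03 and 4.61 in KO-S and at 0.387 and 0.358 in KO-L, but was not called there by limma. For Gata6 the ESC value was 4.39 ± 1.36 and the NP value -1.46 ± 0.45 in KO-S against KO-L by limma; the difference between the cell types was not tested.

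**Figure D4:**
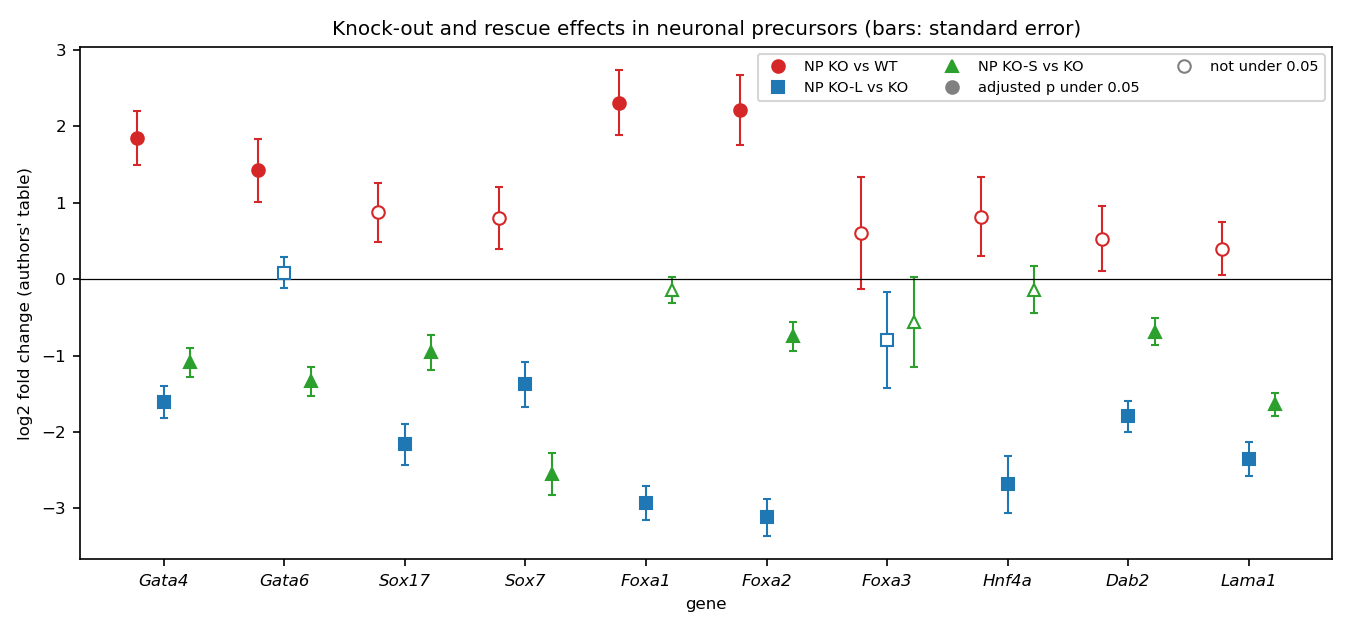
log2 fold changes from the authors' tables for each endoderm gene in NP, for KO against WT (red circles), KO-L against KO (blue squares) and KO-S against KO (green triangles); bars are standard errors and filled symbols have an adjusted p under 0.05. Foxa1 falls in KO-L (-2.93) and not in KO-S (-0.14), and Gata6 the other way round (0.09 and -1.34).

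Against WT, which the deposited tables do not test for the rescues in NP, limma called Gata6 higher in KO-L (1.53 ± 0.39, adjusted p 0.011; background 20.7%) and Dab2, Sox17, Hnf4a and Lama1 lower, the last by -2.09 ± 0.37 (adjusted p 0.0018; background 22.1%). In KO-S it called Foxa1 higher (2.21 ± 0.47, adjusted p 0.02; background 5.7%) and Sox7 (-1.94 ± 0.36, adjusted p 0.01) and Lama1 (-1.42 ± 0.37, adjusted p 0.039) lower (background 4.11%). Leaving out a KO-L library left 2 calls in KO-L, and leaving out a KO-S library left 0 in KO-S; without NP WT library a or d, 2 members were called in KO-S.

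The exon 4 alleles changed no member in NP at the threshold. In the authors' deposited tables, none of 10 members was called in CSex4 (background 4.08% higher and 1.45% lower; 3 at an unadjusted p under 0.05, all lower) and none in Deltaex4 (background 0.0289% higher and 0.052% lower; 1 at an unadjusted p under 0.05, lower), and limma called none in either, with 3 and 2 members at an unadjusted p under 0.05. The CSex4 libraries lay close together, at 47.9 and 49.0 RPM for Gata4, 18.1 and 19.5 for Gata6 and 10.9 and 11.8 for Sox7. Sox7, Sox17 and Lama1, 3 of 10 members, lay below all 4 WT libraries in CSex4. Against the 2 WT libraries of the deposited table, 27.7% of all genes did so, so this count is near the background. Without NP WT library c, limma called 4 members in CSex4, and without library b 1. In Deltaex4 Foxa1 was at 3.24 and 7.33, below all WT libraries (-2.03 ± 0.65, adjusted p 0.542 in the authors' deposited table). Foxa3, at 0.858 and 0.531, was also below all WT libraries. Against the 2 WT libraries of that table, 13.8% of all genes lay below.

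Other endoderm genes, in 3 lists that were drawn up with earlier results of these data known, moved as follows in the knock-outs. Some genes, Hhex among them, are in more than 1 list, so the counts of the lists are not independent. In ESC KO the 15 genes of primitive and parietal endoderm had 1 member called higher (Nid1, nidogen 1, 0.89 ± 0.27, adjusted p 0.00844) and 1 lower (Lrp2, the endocytic receptor megalin, -1.63 ± 0.23, adjusted p 2.46e-10) in the authors' deposited table. Of 12 visceral endoderm genes, 8 of them with an adjusted p, 1 was higher, Rbp4, a retinol carrier (1.75 ± 0.44, adjusted p 0.00112). Of 11 genes of definitive endoderm and its derivatives, 10 of them with an adjusted p, 4 were higher. They were led by Gsc, a homeobox factor of the anterior primitive streak (5.31 ± 0.83, adjusted p 8.84e-09), and Pdx1, a pancreatic factor (3.49 ± 1.11, adjusted p 0.0137), in the authors' deposited table. Of all genes tested, 11% were called higher and 7.27% lower. The list medians of the log2 fold change were 0.53, 0.65 and 1.07, that of the 10 members was 1.30, and that of all genes tested was 0.01. In NP KO 5 of 15 primitive and parietal endoderm genes were higher, led by Thbd, thrombomodulin (3.21 ± 0.57, adjusted p 3.82e-07), in the authors' deposited table. Of the visceral endoderm genes 1 was higher, Hhex (1.70 ± 0.56, adjusted p 0.0159), and 3 were lower, led by the secreted proteins Afp (-2.25 ± 0.33, adjusted p 6.18e-10) and Trf (-1.84 ± 0.60, adjusted p 0.0131), in the authors' deposited table. Of the definitive endoderm genes 3 were higher, led by Gsc (2.90 ± 1.01, adjusted p 0.0236) and Gata5 (2.37 ± 0.44, adjusted p 2.01e-06), in the authors' deposited table. The list medians there were 0.71, -0.07 and 1.65, beside 0.85 for the members and -0.01 for all genes. That table uses WT libraries b and c, and the lists depend on the WT pair. In the deposited table with WT libraries a and d, given as WT relative to KO, 7 primitive and parietal genes were called lower in WT and 0 higher, 1 visceral gene lower and 1 higher, and 5 definitive genes lower and 2 higher, against 17.3% and 15.6% of all genes. The medians were -0.54, 0.89 and -1.91 there, so that the visceral median, near 0 with the first pair, lay higher in WT with the second. In the NP rescues 12 of 15 primitive and parietal endoderm genes were called lower than in KO with either isoform, against a background of 13.8% for the long isoform and 18% for the short one. Visceral endoderm genes were called lower in 6 of 12 cases in KO-L and in 1 in KO-S, where 1 was higher. Of the 11 definitive endoderm genes 1 was higher and 2 lower in KO-L, and 2 were higher and 1 lower in KO-S, where 10.9% and 16.4% of all genes were called higher. In ESC KO-S, 3 of 15 primitive and parietal endoderm genes were called higher and 0 lower, with a list median of 1.69, beside -0.02 for all genes (background 4.28% higher).

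Differences between deposited fold changes were tested in 9 other pairs of tables, and no member was called in any of them. Between ESC KO-L and KO the background was 0.52% of genes higher and 0.0685% lower in KO-L, with 1 member at an unadjusted p under 0.05 (Gata6, lower). Between KO-S and KO it was 1.13% higher and 2.63% lower in KO-S, with 1 such member (Foxa2, higher), and between KO-L3D and KO-L 1.76% higher and 3.12% lower, with none. Between KO-S3D and KO-S it was 0.504% and 0.228%, and between KO-S3D and KO-L3D 0.027% in each direction, both with none. Between Deltaex4 and CSex4 it was 0.00696% higher and 0.0696% lower in ESC, with none, and 0.504% and 1.28% in NP, with 1 (Sox7, higher). For the knock-out itself, Foxa2 was at -0.52 in ESC and at 2.21 in NP, a difference of 2.73 ± 1.07 (unadjusted p 0.0108, adjusted p 0.0674 from the deposited DESeq2 values), where 6.37% of genes were called higher and 7.97% lower in NP, and Foxa3 was the other member at an unadjusted p under 0.05.

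Genes whose deposited log2 fold changes over the 13 tables were most like those of Gata6, of 13586 genes with a mean of at least 10 in every table, included Pdgfra, the receptor that marks primitive endoderm (Pearson's r 0.914), Nrg2 (0.901), Tnfsf12 (0.874) and Adamts9 (0.866). For Foxa2 they were Cry2 (0.899), Rap1gap2 (0.898), Keap1 (0.891), Atf6 (0.884) and Tob1 (0.878). Among the members, Gata4 was most like Gata6 (0.907) and Foxa3 least (-0.037), and Dab2 was most like Foxa2 (0.832). These values describe 13 tables that share WT and KO libraries, WT library c of ESC among them.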

How the data were processed

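RNA-seq was analysed in 32 samples (18 of ESC and 14 of NP), grouped by their titles; 55 ChIP-seq samples entered only through 2 region lists. The submitters' processing notes name TopHat, Bowtie, DESeq2 and DiffBind and the builds mm10 and dm3, without roles. Per the file headers, each table holds DESeq2 statistics; the tables are named as paired, and the fitted formula is not given in the sources used here. In the deposited tables, baseMean is a signal (size-factor-scaled reads averaged over libraries), fold changes with their errors are on a log2 scale, and the authors' test statistic is a score. Each p-value and its adjustment were taken as deposited. The region lists hold a value treated as a p-value, per the file headers at a false discovery rate of 5%.

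Calls used the threshold 0.05 on the deposited adjusted p. Differences of 2 tables were tested as the difference of deposited log2 fold changes over their joint standard error, with Benjamini-Hochberg adjustment over genes whose baseMean reached 10 in each table. The planned count tests were not used, because no deposited column holds counts; recovered reads were instead tested with limma 3.58.1 (R 4.3.3), chosen after seeing the data, on log2(RPM + 0.1) of genes with a mean of at least 10 reads, 1 fit per cell type, Benjamini-Hochberg adjusted. Reads were recovered with Python 3.11.15 and sympy 1.14.0 as the whole numbers that match every printed mean within a relative 2e-14. Low genes had a single solution in 40480 of 40480 entries, libraries shared by tables had equal reads in 100% of those genes and other pairs in at most 18.0%, and recovery from separate subsets of the tables gave the same reads for 99.95% to 100% of genes. Library groups follow from which tables hold a library, never from expression. The recovery, the test of differences and limma were tested on simulated data. Gene positions are RefSeq GRCm38.p6 (26124 symbols matched); because it gives no strand, both ends of a gene were used in place of the start.

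Named genes were all 10 members, Suz12, the 2 largest called rises and falls of each endoderm list in the KO tables, and the 5 genes most like Gata6 and Foxa2, of which 1 gene is not reported here; Foxa3 and Dab2 promoters were chosen after their values were seen. Members and lists were chosen with earlier results of these data known. Fold changes of low genes on the log2(value + 0.1) scale understate the change.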

Additional observations from a re-analysis of the deposited data

Results flagged for a closer look

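In all, 7 members had effects in NP that differed between the 2 rescues by the test of the difference itself, as the fold change of KO-S against KO minus that of KO-L against KO. The difference was 2.79 for Foxa1, 2.55 for Hnf4a, 2.37 for Foxa2, 1.21 for Sox17 and 1.11 for Dab2, all higher with the short isoform. It was -1.42 for Gata6 and -1.17 for Sox7, both lower with the short isoform. Each rescue had 2 libraries, and the labels do not say if a rescue is more than 1 clone. In NP WT, the one group with 4 libraries, the gap between an outermost library and the next was set against the range of the group. It was at most 0.719 of the range (Sox17, library c), and no library was singled out for any member. With 4 libraries only an extreme gap can do so, and library c was still the lowest in all members but Sox7. Groups of 3, such as ESC WT, were not tested in this way.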

How the results depend on the processing

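No paired analysis was possible because the recovered libraries carry no replicate number; the deposited tests may hold a replicate term, judging by the tables' names and the weight of WT library b, and limma does not, so their counts differ in design as well as in tool. DESeq2 and edgeR were not run on the recovered reads. In the deposited tests, a threshold of 0.01 left 1 member in ESC KO and 0 in KO-L3D, and one of 0.1 gave 2 in each of KO-S and KO-L3D. Adjustment over every gene with a p-value left 0 in KO-L3D. A minimum fold change of 1 (log2) left 4 in NP KO-S against KO. With limma on all libraries the number called was 6 in ESC KO-S, 2 in KO-L3D, 1 in KO-S3D and 3 in NP KO-S against KO. Without WT library c it was 5 in ESC KO, 8 in KO-S and 6 in each of KO-L3D and KO-S3D, where Lama1 in KO-L3D turned to 0.83; the library was chosen for its levels of these members, so these counts are no independent check. Within limma, median-ratio scaling gave 2 in ESC KO-S3D and 1 in NP CSex4, and a pseudocount of 0.5 gave 1 in ESC KO-L against KO. The cause of these changes was not tested. WT library c left out gave 3 in KO-L3D against KO-L, 2 in KO-S3D against KO-S and 1 in ESC Deltaex4 against CSex4. The fold changes of these comparisons use no WT library. Only their errors, pooled over all ESC groups, and the set of genes tested could change. Leaving out each library in turn gave, by limma, 1 to 5 calls in ESC KO, 0 to 8 in KO-S, 1 to 6 in KO-L3D, 0 to 6 in KO-S3D, 0 to 1 in KO-L against KO, 1 to 2 in KO-S against KO and 1 to 3 in KO-S against KO-L. In NP it gave 0 to 4 in CSex4, 2 to 4 in KO, 3 to 6 in KO-L against KO, 1 to 2 in KO-S against KO, 0 to 1 in KO-S against KO-L, 2 to 6 in KO-L against WT and 0 to 4 in KO-S against WT; a group left with 1 library was assumed to vary like the others. The other WT libraries of NP gave the same 4 calls in KO. The numbers of members with a Suz12 or H3K27me3 region changed by at most 1, to 5 and 7 without a margin. Low reads limit Sox17, Hnf4a, Foxa2 and Foxa1 in ESC, the last with 8 to 18 reads in the WT libraries.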
